A study of Rattus norvegicus with 18 samples.

Results

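The comparison described here set 6 libraries of rat dorsal root ganglia from herb-treated groups against 6 from solvent-treated groups, across 2 states that the labels name NPP and Sham. The members were chosen by their labels: replicates 1, 2 and 3 of NPP_herb and Sham_herb against replicates 1, 2 and 3 of NPP_solvent and Sham_solvent, which makes 12 of the 18 libraries of the series. The other 6 libraries, Ctrl and Ctrl_solvent, have no herb counterpart and did not enter the test. The treatment is Shentong Zhuyu decoction, a multi-herb preparation used against pain, given in a rat model of neuropathic pain and in sham animals, and the pooled comparison asks what the treatment changes in the ganglion whichever state the animal was in. NPP_herb is the model state with the herb treatment, NPP_solvent the model state with solvent, Sham_herb the sham state with the herb treatment and Sham_solvent the sham state with solvent. For the making of the model, the solvent, dose, time, strain, sex and age, nothing is given in the sources used here. The labels do not call replicates separate animals, and the p-values below therefore reflect how these samples vary, which may be technical variation.

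The dorsal root ganglion holds the cell bodies of sensory neurons, wrapped in satellite glia, with Schwann cells along the axons and resident macrophages, fibroblasts and vessels between them. After nerve injury, neurons switch on a growth program and the macrophages multiply and take on inflammatory roles. Plant preparations can act on a tissue through many routes, among them hormone receptors that act as transcription factors, such as the glucocorticoid receptor, and cytokine pathways such as interferon signalling, which switches on antiviral genes through STAT and IRF factors.

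Each library held 18300000 to 50300000 counted reads, with a median of 29400000, and 19672 to 21442 genes with at least 1 read. Neuron markers were high in every one of the 12 libraries: Prph, a neurofilament-type protein of sensory neurons, ran from 1728 to 3172 CPM (a gene's reads scaled to the total of its library). The spinal cord oligodendrocyte marker Mog stayed between 0.0288 and 0.432 CPM, and the fat cell marker Adipoq was at 0 reads in 7 of 12 libraries. Other markers of neighbouring tissue were present: the water channel Aqp4, from the spinal cord list, ran from 6.17 to 13.4 CPM with herb and 0.599 to 9.91 with solvent, the muscle actin Acta1 from 6.18 to 15.1 over both, and the fat cell gene Cidec from 0.109 to 1.17. Sums were taken over tested list members only, which were 4 of 10 spinal cord, 9 of 11 muscle and 3 of 8 fat cell genes. Spinal cord genes held 13.7 to 22.5 CPM with herb and 5.61 to 22.1 with solvent. Muscle genes held 10.9 to 22.8 and 10.5 to 28.3, and fat cell genes 20.6 to 28.2 and 19.1 to 27.3. Lipe, with a mean of 22.5 CPM over the 12 libraries, made up most of the fat cell sum. Aqp4 (mean 8.64 CPM) and Hapln2 (8.27) made up most of the spinal cord sum, so these sums rest on few genes. Across genes, log2 CPM of libraries of 1 group correlated with a median r of 0.977, and so did that of herb and solvent libraries of 1 state.

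No gene passed the pooled test. EdgeR's quasi-likelihood test with state as a covariate called 0 of 16713 genes tested at a Benjamini-Hochberg adjusted p under 0.05, and the smallest adjusted p was 0.795. At an unadjusted p under 0.05 there were 816 genes (4.88% of those tested), 369 higher with herb (2.21%) and 447 lower (2.67%). The 6 herb and 6 solvent libraries did not overlap in 30 genes (0.18%), 13 higher (0.0778%) and 17 lower (0.102%). The median absolute log2 fold change was 0.12 with a median SE of 0.13, so a typical gene differed by about its own error. DESeq2 on the same reads called 4 genes, voom 0 and limma on the authors' FPKM values 0. The smallest adjusted p was 0.0514 with voom, just above the threshold, and 0.815 to 0.819 with limma on FPKM. The 2 arms also gave 0 calls each, with 363 genes (2.17%) at an unadjusted p under 0.05 in NPP and 1487 (8.9%) in Sham. The arms share no library, and their log2 fold changes correlated weakly across the 16713 genes (Pearson r 0.055, Spearman rho 0.098), with 1 sign in both arms in 54.9% of genes (26.8% above 0 in both).

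Of the genes named by the smallest unadjusted p, the one with the largest difference among those whose groups did not overlap was Cartpt (chromosome 2), which encodes the CART neuropeptide precursor. It was at 2.32, 4.03 and 3.08 CPM in NPP_herb and 3.43, 4.25 and 2.38 in Sham_herb, against 5.73, 7.60 and 5.37 in NPP_solvent and 14.2, 5.34 and 5.63 in Sham_solvent. Every herb library lay below every solvent library, and Sham_solvent replicate 1 stood above the rest. The log2 fold change was -1.16 ± 0.26 (SE, n = 6 and 6), with -0.99 within NPP and -1.32 within Sham. The edgeR adjusted p was 0.795, and the DESeq2 adjusted p was 0.0419 for a log2 fold change of -1.16. Without Sham_solvent replicate 1 the edgeR log2 fold change was -0.86.

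Other genes with lower means in herb libraries had varied roles. H1f10 (chromosome 4), a linker histone, was at 22.3, 24.2 and 25.0 CPM in NPP_herb and 21.7, 16.5 and 21.0 in Sham_herb, against 37.9, 47.5 and 25.4 in NPP_solvent and 62.4, 26.1 and 34.5 in Sham_solvent. These groups did not overlap either, although NPP_solvent replicate 3 lay close to the highest herb library (log2 fold change -0.84 ± 0.21, edgeR adjusted p = 0.795). The small membrane protein gene Smco4 (1.12 ± 0.26 against 1.99 ± 0.35 CPM, mean ± SD) and Pxdc1 (10.1 ± 1.21 against 13.9 ± 2.05 CPM) were the other 2 named genes below every solvent library. Thbs4, a matrix glycoprotein of nerve and muscle, was at 29.2 ± 4.73 CPM against 42.8 ± 12.1. Slc11a1, a metal transporter of macrophage phagosomes, was at 3.79, 3.63 and 0.953 CPM in NPP_solvent and 1.32, 4.28 and 1.53 in Sham_solvent, while herb libraries ran from 0.615 to 1.52. Its 3 high libraries, NPP_solvent replicates 1 and 2 and Sham_solvent replicate 2, recur below. Map3k6, Dgkh, Pctp, Efcab8, Polr3k and the mast cell protease gene Mcpt1l1, which has near-identical copies, made up the 12 named.

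The 12 named genes with higher means in herb libraries also had varied roles, and their lengths are given with the gene length slope below. Esyt2 (chromosome 6), a protein that tethers the endoplasmic reticulum to the plasma membrane, was at 111, 109 and 123 CPM in NPP_herb and 107, 111 and 122 in Sham_herb. In solvent libraries it was at 99.2, 83.3 and 102 in NPP and 78.5, 101 and 76.3 in Sham, so the groups did not overlap (log2 fold change 0.34 ± 0.08, edgeR adjusted p = 0.795). Prom1, the membrane glycoprotein CD133, did not overlap either, at 27.3 ± 2.34 against 21.9 ± 2.34 CPM. Rasgrf1, a calcium-responsive activator of Ras in neurons, had the smallest unadjusted p of the 12 (0.000503), with 9.91 to 12.4 CPM in herb and 6.71 to 9.99 in solvent libraries. Tnr, a matrix glycoprotein of the nervous system, was at 22.9 ± 5.61 against 15.9 ± 1.78 CPM. The potassium channel subunit gene Kcnj5 had a log2 fold change of 0.63 ± 0.17, with NPP_herb replicate 2 (2.57 CPM) below the other herb libraries (4.04 to 5.15). Cd93, a receptor of endothelial cells, had 0.60 ± 0.17. Prag1, Rai14, Gpr176, Mapk6, Pcdhb10 and Slc25a23 completed the set, with log2 fold changes of 0.27 to 0.69.

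**Figure D1:**
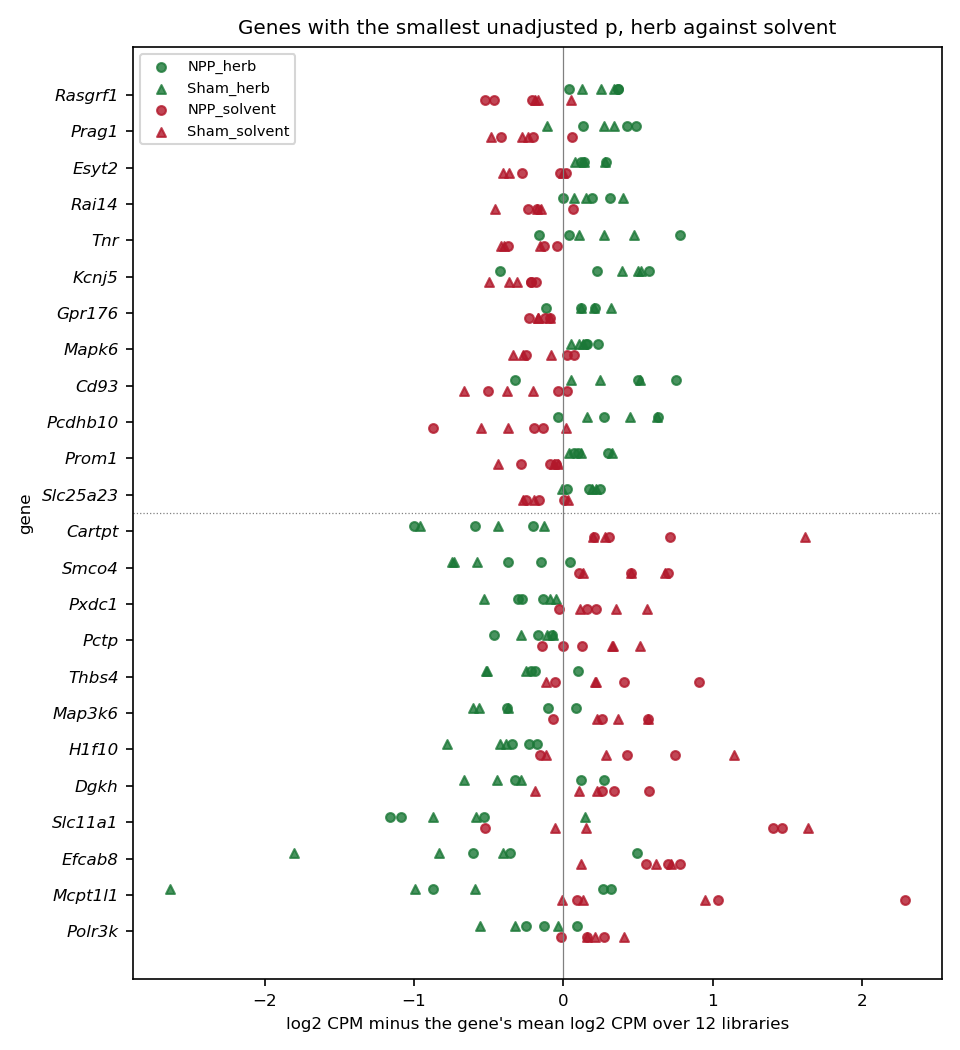
Each point is 1 of 12 libraries, plotted as its log2 CPM minus the gene's mean log2 CPM over those libraries, for the 12 genes with the smallest unadjusted p in each direction (herb green, solvent red, circles NPP, triangles Sham). Cartpt, Smco4, Pxdc1, H1f10, Esyt2 and Prom1 show herb and solvent points that do not overlap, and the 3 solvent points far to the right for Slc11a1 are at 3.63 to 4.28 CPM.

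The other 3 genes that DESeq2 called carry placeholder names or few reads, and they are named here after their values were seen. LOC120102207 had 1, 6 and 29 reads in NPP_herb and 14, 8 and 16 in Sham_herb, against 0 reads in each of the 6 solvent libraries, where a count of 0 allows up to 3 reads per library (DESeq2 adjusted p = 0.000416). RGD1560124 had 139, 92, 76, 11, 98 and 96 reads in the herb libraries, NPP first, and 18, 24, 13, 33, 14 and 23 in the solvent libraries. Sham_herb replicate 1 was the 1 herb library with no more reads than the solvent libraries (DESeq2 adjusted p = 0.0419). Zp2, known as an egg coat gene, had 2, 44 and 37 reads in NPP_solvent and 26, 0 and 17 in Sham_solvent, with at most 1 read in any herb library.

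Glucocorticoid-responsive genes, which the ligand-bound glucocorticoid receptor induces, had lower values with herb in 17 of 20 tested members, where 51.2% of all genes lay below 0. Their median log2 fold change was -0.41, against -0.0046 for all genes tested, and 10 of 20 had an unadjusted p under 0.05 downward (2.67% of all genes). None passed edgeR's adjusted test. The direction was below 0 in both arms for 14 of 20 members (28.2% of all genes), with medians of -0.20 in NPP and -0.55 in Sham. The list was written with earlier results of these data known, so its count is not independent evidence of a direction.

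Feedback and signalling genes of that list were among those with the smallest p. Map3k6, a stress kinase, was at 2.64, 3.19 and 3.63 CPM in NPP_herb and 2.25, 2.31 and 2.64 in Sham_herb, against 4.09, 5.08 and 3.27 in NPP_solvent and 4.42, 5.06 and 4.0 in Sham_solvent. Only NPP_solvent replicate 3 reached down into the herb range (log2 fold change -0.65 ± 0.17, edgeR adjusted p = 0.795). Fkbp5, a chaperone that dampens the receptor and is one of its standard target genes, was at 36.3, 31.3 and 42.3 CPM in NPP_herb and 32.4, 39.0 and 34.9 in Sham_herb. In solvent libraries it was at 51.2, 45.4 and 36.0 in NPP and 44.6, 48.3 and 41.7 in Sham, and replicate 3 of both solvent groups lay inside the herb range. Tsc22d3 (GILZ), the anti-inflammatory leucine zipper protein induced by glucocorticoids, was at 218 ± 17.5 CPM against 277 ± 52.0 (log2 fold change -0.33 ± 0.10), with NPP_solvent replicates 2 and 3 (228 and 205 CPM) inside the herb range of 202 to 245. The zinc-buffering metallothionein Mt2A was at 3.63 ± 0.91 CPM against 6.01 ± 1.88, and the metabolic factor Klf15 at 15.1 ± 3.03 against 23.7 ± 7.05. Ddit4, Cebpd, Arrdc2, Sgk1 and Zbtb16 were the other members at an unadjusted p under 0.05, with log2 fold changes of -0.36 to -0.74. Klf9, Pdk4 and Rasd1 lay above 0, at 0.40, 0.25 and 0.02.

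The list's values by library show where the groups met. Its summed CPM ran from 428 to 573 in herb libraries and from 484 to 795 in solvent libraries, with the lowest solvent sums in NPP_solvent replicate 3 (484) and Sham_solvent replicate 3 (558). Leaving out each library in turn gave a median of -0.50 to -0.30. Both circadian and stress genes sit in this list. The clock list as a whole, with Per1 in common, had a median of -0.05 and 13 of 19 members below 0.

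**Figure D2:**
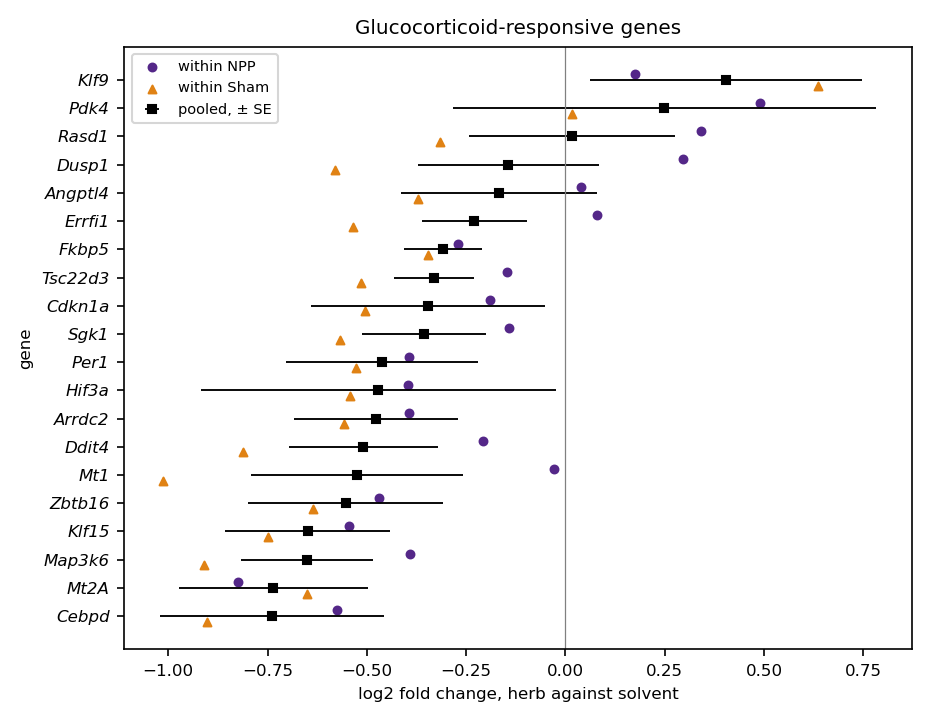
Log2 fold change of herb against solvent for the 20 tested glucocorticoid-responsive genes, as the pooled value with its SE (square, 6 and 6 libraries), the value within NPP (circle) and within Sham (triangle). Most squares lie left of 0, from -0.74 for Cebpd to 0.40 for Klf9, and the Sham value is usually farther left than the NPP value.

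Interferon-stimulated genes had lower pooled values with herb in 32 of 32 tested members (51.2% of all genes), with a median log2 fold change of -0.92, and none passed edgeR's adjusted test. At an unadjusted p under 0.05 there were 4 of 32, all lower (2.67% of all genes): Zbp1, a sensor of left-handed nucleic acid, Bst2 (tetherin), which holds budding virus at the membrane, Ifi27 and Oasl. The median lay below 0 in both arms, at -1.56 with 32 of 32 members below 0 in NPP (49.9% of all genes) and -0.40 with 25 of 32 in Sham (51.5%). In Sham the summed CPM of the list were 1536, 1312 and 848 with herb and 1131, 2606 and 872 with solvent. Sham_solvent replicate 2 alone lay above the Sham_herb range, so the Sham direction rested on that library. The members are high and low in the same libraries, so 32 members are not 32 independent observations. To show what they share in sequence, the 250 bases before the RefSeq transcription start (build GRCr8) were searched on both strands for GAAA, any 2 bases and GAAA again, a form of the interferon-stimulated response element. It was found in 14 of 23 members with a RefSeq promoter (60.9%), against 1140 of 33469 promoters of the same length (3.41%). A match is a description of the letters and not a tested binding site. Promoters of 3 members whose values are given next follow, and of Oasl, which has no match, 5′ to 3′ on the gene's strand, with matches in capitals. The pair of matches in Bst2 overlaps, and that in Irf7 reads on the opposite strand.
Bst2 (chr16:18254968-18255217, minus strand): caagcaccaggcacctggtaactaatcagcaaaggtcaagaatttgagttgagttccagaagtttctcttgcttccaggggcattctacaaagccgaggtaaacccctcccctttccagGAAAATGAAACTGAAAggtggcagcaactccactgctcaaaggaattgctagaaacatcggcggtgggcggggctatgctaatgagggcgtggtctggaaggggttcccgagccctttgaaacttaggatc
Ifi27 (chr6:128355062-128355311, plus strand): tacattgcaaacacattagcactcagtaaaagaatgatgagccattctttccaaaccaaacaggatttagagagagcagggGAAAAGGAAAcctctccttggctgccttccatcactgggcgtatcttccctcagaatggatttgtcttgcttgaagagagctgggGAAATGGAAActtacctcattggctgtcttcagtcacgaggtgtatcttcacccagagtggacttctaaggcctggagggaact
Irf7 (chr1:205800024-205800273, minus strand): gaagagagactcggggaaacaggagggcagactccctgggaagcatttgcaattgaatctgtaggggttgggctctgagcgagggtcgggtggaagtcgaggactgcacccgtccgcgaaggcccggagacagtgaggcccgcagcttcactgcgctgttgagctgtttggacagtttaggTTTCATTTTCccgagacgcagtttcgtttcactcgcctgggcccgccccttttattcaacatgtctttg
Oasl (chr12:47356293-47356542, minus strand): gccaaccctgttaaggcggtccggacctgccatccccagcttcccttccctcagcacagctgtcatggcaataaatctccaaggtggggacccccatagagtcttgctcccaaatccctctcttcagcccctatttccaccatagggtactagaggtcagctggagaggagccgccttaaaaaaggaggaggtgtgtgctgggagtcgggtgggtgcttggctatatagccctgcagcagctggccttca

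The values of these genes rested on 3 solvent libraries. Isg15, a ubiquitin-like antiviral protein, was at 107, 123 and 2.02 CPM in NPP_solvent and 21.7, 86.8 and 9.43 in Sham_solvent, against 5.44, 5.37 and 4.03 in NPP_herb and 33.2, 22 and 4.83 in Sham_herb. NPP_solvent replicates 1 and 2 and Sham_solvent replicate 2 were high, and the other 3 solvent libraries lay within or below the herb range. The log2 fold change was -2.40 ± 1.10 (edgeR adjusted p = 0.795). Irf7, the transcription factor that amplifies the response, was at 125, 160 and 8.09 CPM in NPP_solvent and 15.9, 124 and 13.2 in Sham_solvent, and at 8.58 to 59.7 in herb libraries. Bst2 was at 48.7, 44.7 and 7.71 CPM in NPP_solvent and 19.5, 42.1 and 21.6 in Sham_solvent, against 9.85 to 23.9 in herb libraries. Ifi27, far more abundant, was at 287 ± 42.2 CPM against 395 ± 119. The chemokine Cxcl10, which interferon induces, was at 6.57 ± 5.37 against 12.4 ± 7.0 CPM. Summed over the list, herb libraries held 737 to 1536 CPM and the 3 high solvent libraries 2569 to 2707, while the other 3 solvent libraries held 639 to 1131. Leaving out each library in turn gave a list median of -1.13 to -0.62. High and low libraries also occurred where no herb was compared: Isg15 was at 202, 3.93 and 119 CPM in Ctrl_solvent and at 2.14 to 3.84 in Ctrl.

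The glucocorticoid list did not carry its motif in the same windows. AGAACA, the hexamer that the receptor binds, was in 0 of 18 matched promoters of that list on either strand, against 17.5% of all promoters, which says only that these letters are not in these 250 bases.

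Macrophage genes lay below 0 in 19 of 23 members, with a median of -0.23 (-0.44 to -0.16 with each library left out, the extremes without Sham_herb replicate 2 and without Sham_herb replicate 1), and complement genes, which share C1qa, C1qb and C1qc with them, in 19 of 23, with a median of -0.35, where 51.2% of all genes lay below 0. At an unadjusted p under 0.05 there were 7 macrophage members lower and 1 higher, and 6 complement members lower and 0 higher, where all genes had 2.67% lower and 2.21% higher. None passed edgeR's adjusted test. In bulk tissue, fewer cells of a type and less RNA per cell cannot be told apart. C1qa, a subunit of the first complement component, was at 20.4, 20.6 and 15.9 CPM in NPP_herb and 16.4, 29.3 and 18.8 in Sham_herb. In solvent libraries it was at 71.5, 61.4 and 16.8 in NPP and 26.6, 68.5 and 34.6 in Sham (log2 fold change -1.21 ± 0.35, edgeR adjusted p = 0.795). The same 3 solvent libraries were highest, and NPP_solvent replicate 3 and Sham_solvent replicate 1 lay within the herb range of 15.9 to 29.3. The lysosomal protein Cd68 followed them, at 10.5, 11.2 and 9.62 CPM in the 3 high libraries, 3.43 to 4.38 in the other solvent libraries and 2.32 to 5.08 in herb libraries.

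Other members of these lists gave less even values. Aif1 (IBA1), a cytoskeletal protein used to stain macrophages, was at 15 ± 3.94 CPM against 21.2 ± 5.21, and the Fc receptor chain Fcer1g at 13.1 ± 4.30 against 23.5 ± 9.39. Csf1r, the growth factor receptor that macrophages need, had medians of 22.6 CPM in herb and 24.3 in solvent libraries. Cx3cr1, the fractalkine receptor, was one of 4 macrophage members above 0 and the 1 with an unadjusted p under 0.05, at 1.36 ± 0.82 against 0.675 ± 0.376 CPM (log2 fold change 1.09 ± 0.43), and its ligand Cx3cl1 was at 5.94 ± 1.46 against 3.73 ± 0.76. Of the complement list, the protease C1s was at 33.6 ± 8.76 against 47.9 ± 10.1 CPM, its inhibitor Serping1 at 62.0 ± 15.2 against 85.6 ± 17.3 and C2 at 12.9 ± 4.05 against 22.8 ± 10.9. Summed macrophage CPM ran from 120 to 239 with herb and 157 to 372 with solvent. MHC class II genes, which present antigen, lay below 0 in 9 of 11 members with a median of -0.28, and without NPP_solvent replicate 1 the median was 0.05. T, NK and B cell genes had a median of -0.19 over 9 tested members, 5 of them below 0, and this median turned to 0.24, 0.05 and 0.04 without Sham_solvent replicate 3, Sham_herb replicate 2 and Sham_solvent replicate 1.

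**Figure D3:**
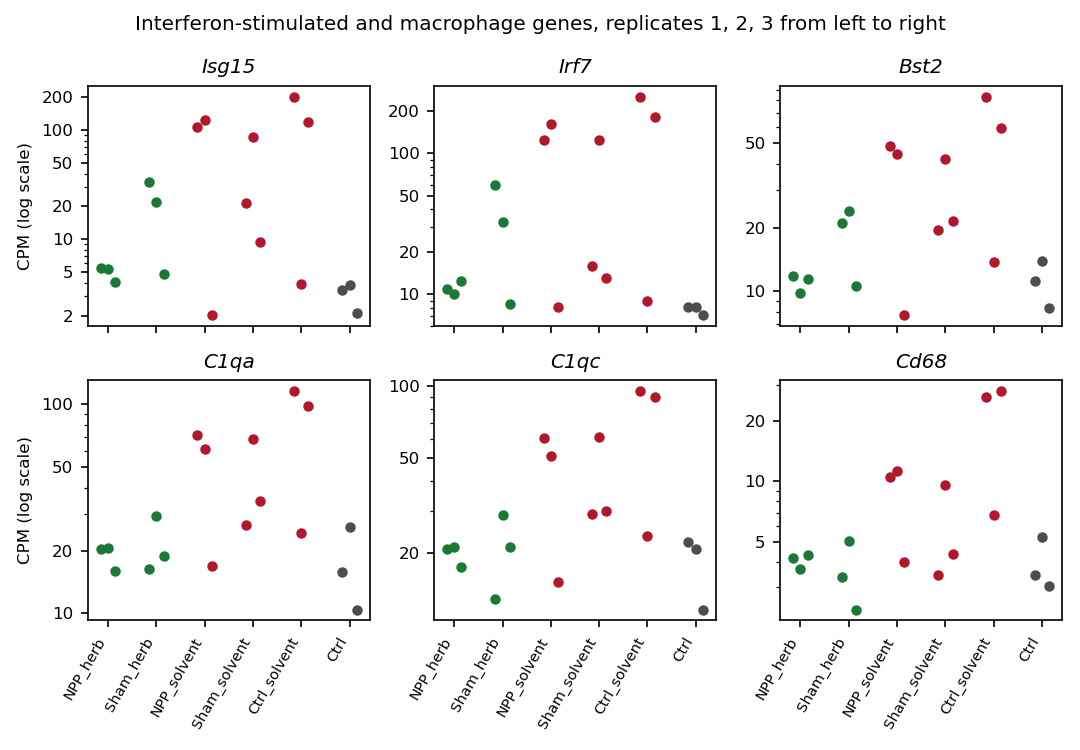
CPM on a log axis of the interferon-stimulated genes Isg15, Irf7 and Bst2 and the macrophage genes C1qa, C1qc and Cd68 in all 18 libraries, 3 points a group in the order of the replicate numbers (herb green, solvent red, Ctrl grey). NPP_solvent replicates 1 and 2, Sham_solvent replicate 2 and Ctrl_solvent replicates 1 and 3 stand high in each panel, and no herb library reaches them.

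Neuronal and injury genes, the usual readouts of a nerve injury model, had medians near 0. Of 21 nociceptor genes, 13 lay above 0 (median 0.06) and 0 had an unadjusted p under 0.05. The medians of the arms had opposite signs, -0.07 in NPP and 0.26 in Sham. Trpv1, the channel opened by heat and capsaicin, had 81.1 ± 15.2 CPM against 78.6 ± 16.3, and Calca, which encodes the peptide CGRP, had 957 ± 113 against 1101 ± 160. Genes of large-diameter neurons had a median of 0.05, with 11 of 18 above 0, and the calcium buffer Pvalb was at 221 ± 32.0 against 291 ± 118 CPM. Its log2 fold change was -0.03 in NPP and -0.69 in Sham, where Sham_solvent held 362 ± 130 CPM. Nerve injury genes had a median of 0.12, with 18 of 25 above 0 and 0 at an unadjusted p under 0.05. Atf3, a transcription factor of injured neurons, was at 51.0, 108 and 10.8 CPM in NPP_herb and 11.5, 10.7 and 54.4 in Sham_herb, against 82.6, 39.3 and 14 in NPP_solvent and 13.2, 14.4 and 29.6 in Sham_solvent. The spread within each of the 4 groups was wider than the difference of their means (log2 fold change 0.37 ± 0.65). The injury-induced neuropeptide Npy spread further, from 1.24 to 173 CPM with herb and from 2.75 to 120 with solvent, and Gal had a log2 fold change of -0.14 ± 0.60.

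Inflammatory mediators had a median of -0.03 over the 23 of 31 members that passed the filter on low counts. Il1b, a cytokine that sensitizes nociceptors, was at 2.05 ± 2.16 CPM against 1.02 ± 0.42, its mean with herb raised by NPP_herb replicate 2 (6.38 CPM). Tnf did not pass the filter, with 0 to 11 reads in any of the 12 libraries. Ccl2, a chemokine that draws monocytes, was at 16.9 ± 3.85 CPM against 16.3 ± 5.58. Tnfaip3 (A20), an inhibitor of NF-κB signalling, was at 4.92 ± 0.73 against 3.79 ± 0.69 CPM, with an unadjusted p of 0.0302. Of 29 inflammation-linked transcription factors, 17 lay above 0, with a median of 0.02. At an unadjusted p under 0.05 there were 3 lower with herb, Cebpb, Cebpd and Maff (2.67% of all genes), and 1 higher, Ets1 (2.21%). Their implied lengths were 1.6, 1.27, 2.66 and 6.11 kb. Cebpb was at 3.8 ± 1.4 against 5.95 ± 2.34 CPM. Cebpb differed between arms in size, with -0.08 in NPP and -1.20 in Sham, a difference that did not pass (edgeR adjusted p = 0.928). Stat3, Jun, Nfkb1 and Rela had log2 fold changes of 0.06, 0.02, 0.14 and 0.03, Spi1 had -0.31 and Fos 0.43.

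Lists of vessel cells had medians slightly above 0. Endothelial genes lay above 0 in 11 of 16 members (48.8% of all genes), with a median of 0.08, and 4 had an unadjusted p under 0.05 upward (2.21% of all genes): the VEGF receptors Kdr and Flt1, the angiopoietin receptor Tek and the TGF-beta co-receptor Eng. Flt1 was at 29.2 ± 4.01 CPM against 23.5 ± 3.08, and Kdr at 20.9 ± 4.19 against 16.5 ± 2.37. The endothelial median was 0.15 in NPP and 0.00 in Sham. Of 16 mural and contractile genes, 10 lay above 0 (median 0.06), and Notch3, the receptor that mural cells carry, was at 20.5 ± 2.63 against 16.8 ± 1.86 CPM. Satellite glia genes lay above 0 in 8 of 12 members, with Ednrb, an endothelin receptor, at 109 ± 7.41 against 94.0 ± 13.7 CPM. Apoe, 1 of the 4 members below 0, was at 3979 ± 490 against 4935 ± 1550 CPM (log2 fold change -0.31 ± 0.18). Summed CPM of this list had a median of 6565 in herb and 7608 in solvent libraries. Myelinating Schwann cell genes had a median of -0.03. Cholesterol synthesis genes, which glia use to build myelin, lay above 0 in 16 of 24 members with a median of 0.09. Insig1, which holds the sterol sensor in the endoplasmic reticulum, did not overlap between groups: herb libraries ran from 187 to 208 CPM and solvent libraries from 163 to 186 (log2 fold change 0.17 ± 0.06, edgeR adjusted p = 0.795).

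Fibroblast and matrix genes lay below 0 in 18 of 22 members, with medians of -0.19 pooled, -0.04 in NPP and -0.35 in Sham. Without NPP_solvent replicate 3 the pooled median was -0.04. The proteoglycan Dcn was at 482 ± 89.1 CPM against 611 ± 106, and the lipid carrier Apod at 771 ± 228 against 1056 ± 292. The lectin Clec3b had the smallest p of the list, with a log2 fold change of -0.81 ± 0.27, made of -0.29 in NPP and -1.34 in Sham. The implied lengths of Dcn, Apod and Clec3b were 2.05, 1.23 and 2.47 kb, and that of Col6a1, also among the list's smallest p, 4.56 kb. Heat shock genes lay below 0 in 17 of 19 members (51.2% of all genes) but by little, with a median of -0.09. Over the alternative fits, the gene length covariate described below included, the fibroblast median ran from -0.19 to -0.06 and the heat shock median from -0.09 to -0.06. Dnajb1, a co-chaperone, had 60.5 ± 5.69 CPM against 75.6 ± 15.7, with Sham_solvent replicate 3 at 106.

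**Figure D4:**
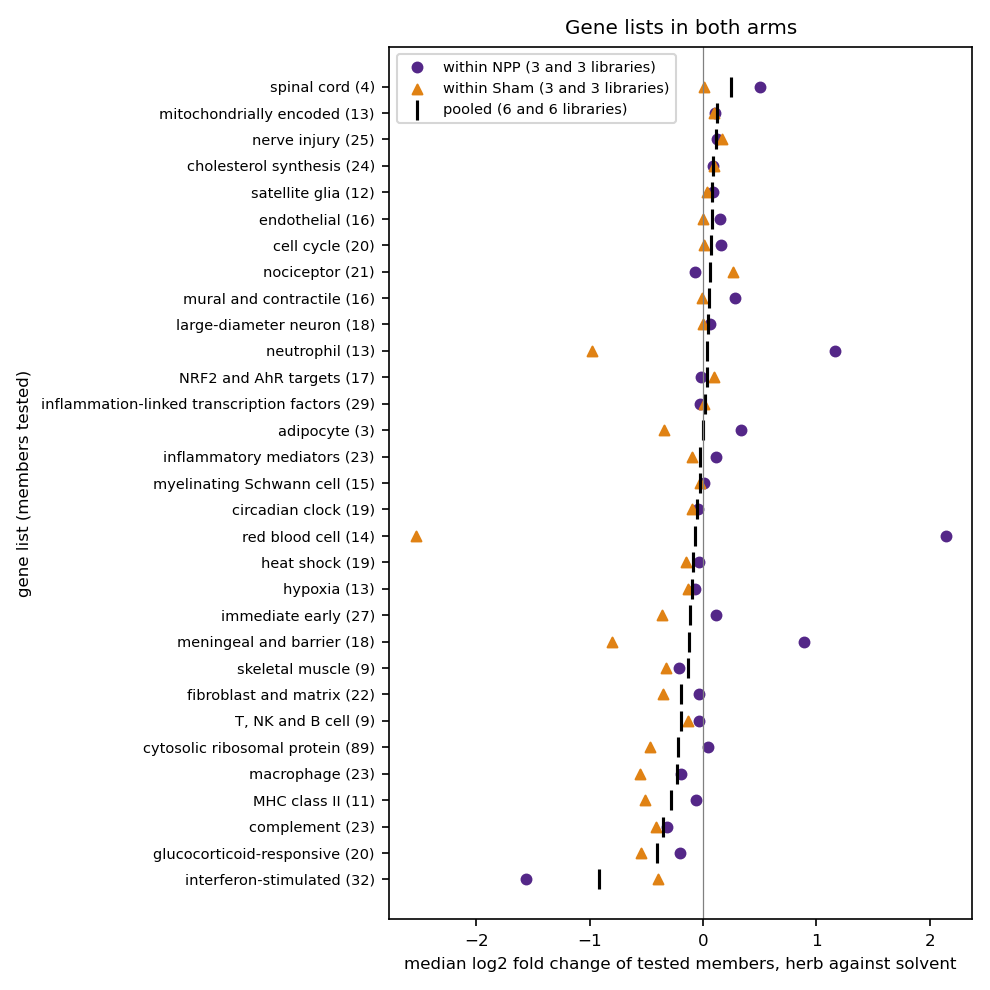
Median log2 fold change of herb against solvent over the tested members of 31 gene lists, within NPP (circles), within Sham (triangles) and pooled (bars), with the number of members tested in brackets. Interferon-stimulated, glucocorticoid-responsive and complement genes lie left of 0 in both arms, while red blood cell, neutrophil and meningeal genes lie far apart in the 2 arms and near 0 when pooled.

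In 3 lists the arms lay far apart with opposite signs. Red blood cell genes had a median of 2.14 in NPP and -2.53 in Sham, and of -0.07 pooled. The pooled median ran from -0.85 without NPP_herb replicate 3 to 0.80 without Sham_solvent replicate 3. Neutrophil genes lay above 0 in 13 of 13 members in NPP and below 0 in 13 of 13 in Sham (medians 1.16 and -0.97). Meningeal and barrier genes had medians of 0.89 and -0.80. Hemoglobin genes took 0.0750% of reads in NPP_herb replicate 3 and 0.0815% in Sham_solvent replicate 3, and at most 0.0186% in the other 10 libraries. The part of blood RNA in these lists was not tested. The test of the difference between arms called 0 of 16713 genes with edgeR (548, or 3.28%, at an unadjusted p under 0.05, smallest adjusted p 0.889), and DESeq2 called 10. The smallest DESeq2 adjusted p was 2.63e-05, for LOC120102105, a placeholder name, with a difference of 2.26. DESeq2 also called Slc22a8, S100a8, Rhd, Igf2 and LOC100911237, named here after their values were seen, and A2m, Gjb2, Fbln1 and Np4. A2m, a protease inhibitor of plasma and of the ganglion, was at 55.3, 52.8 and 57.4 CPM in NPP_herb against 35.6, 26.3 and 37.4 in NPP_solvent. In Sham it was at 37.5, 31.8 and 33.0 with herb and 39.5, 38.1 and 40.0 with solvent, so that the arms differed by 0.94 ± 0.18 (edgeR adjusted p of the difference 0.889, DESeq2 0.0113). Gjb2, a gap junction protein of the meninges, was at 4.42, 4.14 and 3.71 CPM in NPP_herb against 2.42, 1.73 and 1.39 in NPP_solvent, and at 2.16, 3.03 and 1.96 in Sham_herb against 5.08, 3.10 and 4.41 in Sham_solvent. Fbln1, Np4 and Cemip were the others of the 5 genes named by edgeR's unadjusted p for a higher difference in NPP. In the opposite direction Gpr35, Kcnn1, Mmp25, Rin1 and Mrgprb4 had differences of -2.06 to -0.51.

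Libraries also differed by gene length. In each library the deviation of log2 CPM from a gene's mean was regressed on log2 gene length, and this slope was 0.033 ± 0.055 in herb and -0.033 ± 0.111 in solvent libraries (exact permutation test within state, two-sided, p = 0.24, adjusted p = 0.42 over 6 library measures). The lowest slopes were those of Sham_solvent replicates 1 and 3, at -0.187 and -0.108. Over 13097 genes with a length, the 4366 shortest had a median log2 fold change of -0.11 with 79.2% below 0, the 4365 in the middle -0.0014 with 50.6%, and the 4366 longest 0.07 with 25.4%. Ribosomal protein genes, which are short, lay below 0 in 87 of 89 members (median -0.22), but in 23 of 89 within NPP and 88 of 89 within Sham. With the slope as a covariate their median was 0.06, and without both Sham_solvent libraries it was 0.06 as well. With the slope as a covariate the glucocorticoid median was -0.31, the interferon median -1.07, the macrophage median -0.25, the complement median -0.30 and that of MHC class II -0.11. Cartpt, with an implied transcript length of 1.31 kb, had a log2 fold change of -0.87 in that fit, H1f10 -0.52 and Map3k6 -0.61. Of the 12 named genes with higher means in herb libraries, Slc25a23 (2.83 kb) and Kcnj5 (4.24 kb) were the shortest. The others had implied lengths from 5.13 kb (Prom1) to 13.9 kb (Tnr). All 12 log2 fold changes stayed above 0 in the alternative fits, that covariate included, with a lowest value of 0.12 for Pcdhb10. The part of gene length in their direction was not tested. Depth, hemoglobin, ribosomal RNA, mitochondrially encoded and ribosomal protein shares gave exact permutation p-values of 0.23 to 0.945, where the smallest p the design allows is 0.005.

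**Figure D5:**
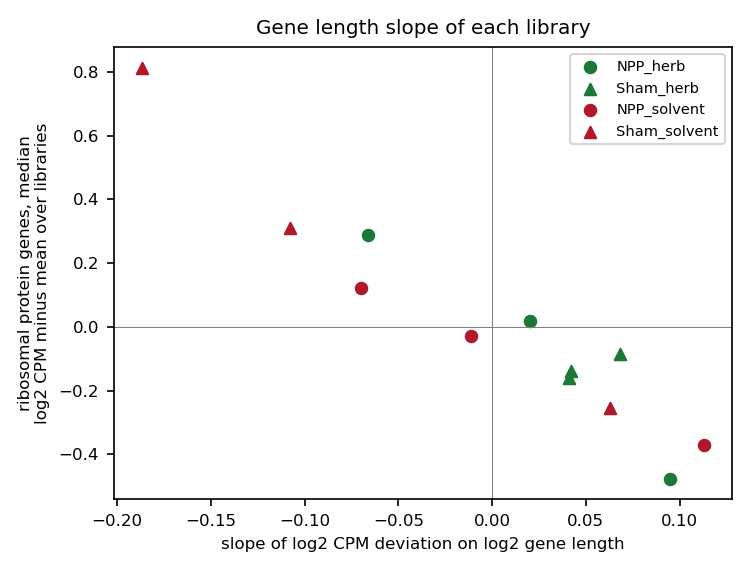
Slope of each library's log2 CPM deviations on log2 gene length (x axis) against the library's median deviation of ribosomal protein genes on the log2 scale (y axis), for 12 libraries. Sham_solvent replicates 1 and 3 lie farthest left, at -0.187 and -0.108, and have the highest ribosomal protein values.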

How the data were processed

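Polyadenylated RNA of rat dorsal root ganglia was sequenced from both ends after a stranded library kit, per the labels' protocols. Alignment and build come from the submitters' processing notes, which name HISAT2, DESeq2 and mRatBN7.2 with no version. Which program counted reads, with which strand setting and annotation, is not given in the sources used here. Overlapping genes and near-identical copies (C4a and C4b, hemoglobin, MHC class II, Mcpt1l1, ribosomal RNA) are therefore uncertain. The deposited table holds raw read counts for 25678 genes, which the authors did not normalize. A deposited FPKM table, scaled by the authors to gene length and library size, holds 25557 of them and gave the implied lengths and an alternative fit.

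Genes with few reads were removed with filterByExpr (8965 genes, at most 0.0461% of a library's reads), leaving 16713. Counts were scaled by TMM (factors 0.934 to 1.03) and tested with edgeR 4.0.16 in R 4.3.3 by the quasi-likelihood F test with state as a covariate and 9 residual degrees of freedom. P-values were adjusted by Benjamini-Hochberg over all 16713 genes, and 0.05 was the threshold. Arm values come from a model with 1 coefficient per group, and the difference of arms from the interaction. Printed CPM use TMM factors over all 18 libraries, so their ratios can differ slightly from the tested fold changes. No pair of replicates agreed within sampling noise (smallest chi-square per degree of freedom 12.1). The additive edgeR fit was first run on simulated counts with known changes, and the other fits were not. Alternatives used limma 3.58.1 and DESeq2 1.42.0.

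Per direction, 12 genes were named by the smallest unadjusted p among genes of at least 1 CPM with a symbol that is no placeholder, along with up to 4 members of each described list, 5 genes per direction of the difference, and a set of fixed genes. Further list members at an unadjusted p under 0.05 are named after their values were seen. The comparison and the 31 gene lists were chosen with earlier results of these data known, and lists are described by counts and medians without a test. Promoter sequences are RefSeq's, on build GRCr8, and are placed by symbol only.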

Additional observations from a re-analysis of the deposited data

Results flagged for a closer look

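In 17 of 220 groups of 6 libraries (the herb or the solvent libraries of 1 gene or library measure), the highest or lowest library stood far from the other 5. Chance flags about 1 group in 20, and the genes are not independent.

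Of genes named for the comparison, Cartpt was at 14.2 CPM in Sham_solvent replicate 1, where the other solvent libraries lay at 5.34 to 7.60. Efcab8 was at 1.20 CPM in Sham_solvent replicate 2 (others 1.62 to 1.90), Kcnj5 at 2.57 in NPP_herb replicate 2 (others 4.04 to 5.15) and A2m at 26.3 in NPP_solvent replicate 2 (others 35.6 to 40.0). Insig1 was at 163 CPM in NPP_solvent replicate 2 (others 178 to 186), and Hsd17b7 at 29.6 in NPP_solvent replicate 3 (others 21.3 to 23.5).

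Among neuronal genes, Nppb, a peptide of itch neurons, was at 22.2 CPM in NPP_solvent replicate 3, against 0.942 to 1.78 in the other solvent libraries. Flrt3 was at 43.0 CPM in NPP_solvent replicate 1 (others 16.2 to 22.7), and Cacna2d1 at 4.06 in Sham_herb replicate 1 (others 8.54 to 13.3). Among immune and stress genes, Il1b was at 0.206 CPM in Sham_solvent replicate 1 (others 1.06 to 1.39), Cx3cl1 at 2.34 in Sham_solvent replicate 3 (others 3.70 to 4.65) and RT1-DMa at 6.48 in NPP_solvent replicate 3 (others 10.3 to 13.4). Dnajb1 was at 106 CPM in Sham_solvent replicate 3 (others 62.8 to 74.8), and Fkbp4 at 522 in NPP_herb replicate 3 (others 450 to 475).

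Hemoglobin genes took 0.0750% of reads in NPP_herb replicate 3 (others 0.00354% to 0.0186%) and 0.0815% in Sham_solvent replicate 3 (others 0.0021% to 0.0155%). Ribosomal RNA took 0.194% in Sham_solvent replicate 1 (others 0.0748% to 0.117%).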

How the results depend on the processing

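EdgeR called 0 genes for herb against solvent under every alternative run with it, and DESeq2 called 4. The smallest edgeR adjusted p was 0.795 in the main fit and 0.108 with the gene length slope as a covariate. It was 0.0666 without Sham_solvent replicates 1 and 3 together and 0.0628 with a replicate block within each state. For the difference of arms DESeq2 called 10, and edgeR 0 throughout. Genes at an unadjusted p under 0.05 numbered 816, and 526 to 2073 with each library left out in turn. Within NPP alone they numbered 319 and within Sham alone 1401. That count was 2073, 1449 and 1443 without NPP_solvent replicate 3, Sham_solvent replicate 2 and NPP_herb replicate 2, and 526 without Sham_herb replicate 3. For the difference of arms it was 548, and 387 to 2344 with each library left out, the highest without Sham_solvent replicate 2 and 1042 without NPP_herb replicate 3. The pooled count was 658 without Sham_solvent replicates 1 and 3 together, a setting added after the data were seen.

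With the replicate number as a block the count was 693, and with a replicate block within each state it was 1288, with 0 called in both. The smallest edgeR adjusted p was 0.834 in the first of these fits and 0.0628 in the second. Same-numbered libraries correlated at 0.079, 0.19 and 0.23 in NPP and 0.094, 0.19 and 0.065 in Sham, not above 0.1 in every pair. Each herb library correlated best with the same-numbered solvent library of its state, except Sham_herb replicate 3, which did so with replicate 1. The labels do not say that a number marks a shared animal or batch, and it was not taken as a pairing. Whether same-numbered libraries share a source was not tested.

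Of genes named for the pooled test, for a described list or as fixed genes, the following changed sign in some fit, and the cause was not tested. Npy was at -0.28 with voom and -0.012 on FPKM with a pseudocount of 0.1, filtered or not. Gal was at 0.32 with the length covariate, 0.37 within NPP and 0.25 without both Sham_solvent libraries. Stat3 was at -0.014, -0.086 and -0.027 in the same 3 fits. Within NPP, Runx1 was at -0.040, Nfkb1 at -0.0021, Hspb1 at 0.015, Hspa1b at 0.0068 and Hspe1 at 0.052. Without both Sham_solvent libraries, Nfkb1 was at -0.00020 and Hspe1 at 0.0068. Within Sham, Ccl2 was at -0.018 and Fos at -0.50. With single libraries left out, the range was -0.14 to 0.71 for Atf3, -0.72 to 1.63 for Npy, -0.72 to 0.10 for Gal, -0.078 to 0.20 for Ccl2, -0.053 to 0.12 for Jun and -0.012 to 0.083 for Rela. With 1 library left out, the following list medians changed sign, with ranges of -0.47 to 0.05 for MHC class II, -0.30 to 0.24 for T, NK and B cells, -0.85 to 0.80 for red blood cells, -0.26 to 0.29 for neutrophils, -0.31 to 0.10 for meningeal, -0.03 to 0.27 for nerve injury, -0.02 to 0.15 for mural, -0.08 to 0.03 for Schwann cell, -0.14 to 0.02 for clock, -0.11 to 0.07 for inflammatory mediator, -0.03 to 0.07 for transcription factor, -0.02 to 0.08 for NRF2 and AhR, -0.65 to 0.09 for muscle and -0.13 to 0.06 for adipocyte genes. Without Sham_solvent replicates 1 and 3 together the interferon median was -1.42, and those of T, NK and B cells and red blood cells were 0.27 and 1.57. Depth limits the 8965 genes removed for few reads, which were not tested.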

Other observations

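Immediate early genes, which neurons switch on within minutes of activity, lay below 0 in 16 of 27 members with a median of -0.11, made of 0.12 in NPP and -0.36 in Sham. Jund, a partner of Fos, was at 78.8 ± 13.2 CPM with herb against 106 ± 27.3 with solvent (log2 fold change -0.43, unadjusted p = 0.0242). Targets of NRF2 and AhR, the sensors of oxidants and of many plant compounds, lay below 0 in 8 of 17 members, with a median of 0.03. Hmox1, heme oxygenase, was at 11 ± 1.27 against 14.1 ± 3.76 CPM, with a log2 fold change of -0.05 in NPP and -0.67 in Sham.

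Hypoxia genes lay below 0 in 11 of 13 members (51.2% of all genes), with a median of -0.10, and share Ddit4 with the glucocorticoid list. Cell cycle genes lay above 0 in 14 of 20 members, with a median of 0.07, and 0 of them had an unadjusted p under 0.05. The 13 mitochondrially encoded genes had a median of 0.12. Skeletal muscle genes had a median of -0.13 over 9 tested members, spinal cord genes 0.24 over 4 and adipocyte genes -0.0036 over 3.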
